A study of Mus musculus with 77 samples.

Results

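Amacrine cells are the interneurons of the inner retina. They receive input from bipolar cells and shape what the ganglion cells send to the brain, and most of them release the inhibitory transmitters GABA or glycine. The 10 genes described here are in use as markers of these cells or of their subtypes. They were taken by name, through the transcript that the array annotation gives for each probe. No measured value entered this rule, but the genes were chosen with earlier results of these data known. All 10 were found, on 14 non-control probes, among 21154 named genes on 28026 probes.

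The genes fall into roles. *Slc6a9* encodes the glycine transporter GlyT1, which glycinergic amacrine cells carry, and *Slc32a1* encodes the vesicular transporter that loads GABA and glycine into synaptic vesicles. *Gad1* and *Gad2* encode the glutamate decarboxylases that make GABA. *Tfap2a* and *Tfap2b* encode AP-2 transcription factors of postmitotic amacrine cells, and *Pax6* encodes a homeodomain factor of retinal progenitors that amacrine cells keep. *Th* marks dopaminergic amacrine cells through tyrosine hydroxylase, *Chat* marks starburst amacrine cells through choline acetyltransferase, and *Calb2* encodes the calcium-binding protein calretinin. Several of these genes are not restricted to amacrine cells, since *Pax6* and *Calb2* are also present in ganglion cells.

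The study followed C57BL/6 mice with oxygen-induced retinopathy (OIR), a model in which pups breathe 75% oxygen from postnatal day 7 (P7) to P12 and then return to room air. Control mice stayed in normoxia at 21% oxygen. Retinas were taken on P12, P17 and P28 from 13, 13 and 13 OIR mice and from 12, 12 and 14 control mice, with both retinas of a mouse pooled on 1 array, which gave 77 arrays. Whole litters were assigned to the oxygen groups, and the litter of each mouse is not stated in the labels, so litter could not be fitted here. Each sample was hybridised in 2 colours against Universal Mouse Reference RNA.

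Levels are given as the log2 ratio of the retina channel to the reference channel on the same array. The labels assign the retina to Cy5, but the rod genes *Sag*, *Gnat1*, *Pde6b* and *Nrl* were brighter in Cy3 on 77 of 77 arrays, with *Sag* higher by 5.53 to 7.75 log2 units. Cy3 was therefore taken as the retina channel for every signed value. A gene is represented by its probe with the brightest mean Cy3 signal, and levels are compared between groups within a probe, not between genes. The Cy3 channel alone, after quantile normalisation, is a second measure, given for the main comparisons.

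The arrays differed in brightness. On 28 arrays the 90th percentile of the Cy3 signal was 869.4 or more, with a median of 1752, and on the other 49 arrays it was 422 or less, with a median of 193. These bright arrays held 2 of 12 control and 1 of 13 OIR mice of P12, 3 of 12 control and 2 of 13 OIR mice of P17, and 9 of 14 control and 11 of 13 OIR mice of P28. Age and array brightness were thus largely tied, and oxygen group was much less so on P12 and P17. The median number of probes well above background in Cy3 was 20310 in P17 OIR mice, 20868.5 in P17 control mice, 32916 in P28 OIR mice and 32192.5 in P28 control mice. In Cy3, 9 of the 10 members were well above background on 77 of 77 arrays and *Chat* on 76. The reference channel was close to background for most members, with *Tfap2b* above it on 1 array, *Calb2* on 4, *Gad2* on 7, *Chat* on 18, *Gad1* on 25 and *Pax6* on 26. It was well above background on 68 arrays for *Slc32a1*, on 76 for *Tfap2a* and on 77 for *Slc6a9* and *Th*.

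**Figure D1:**
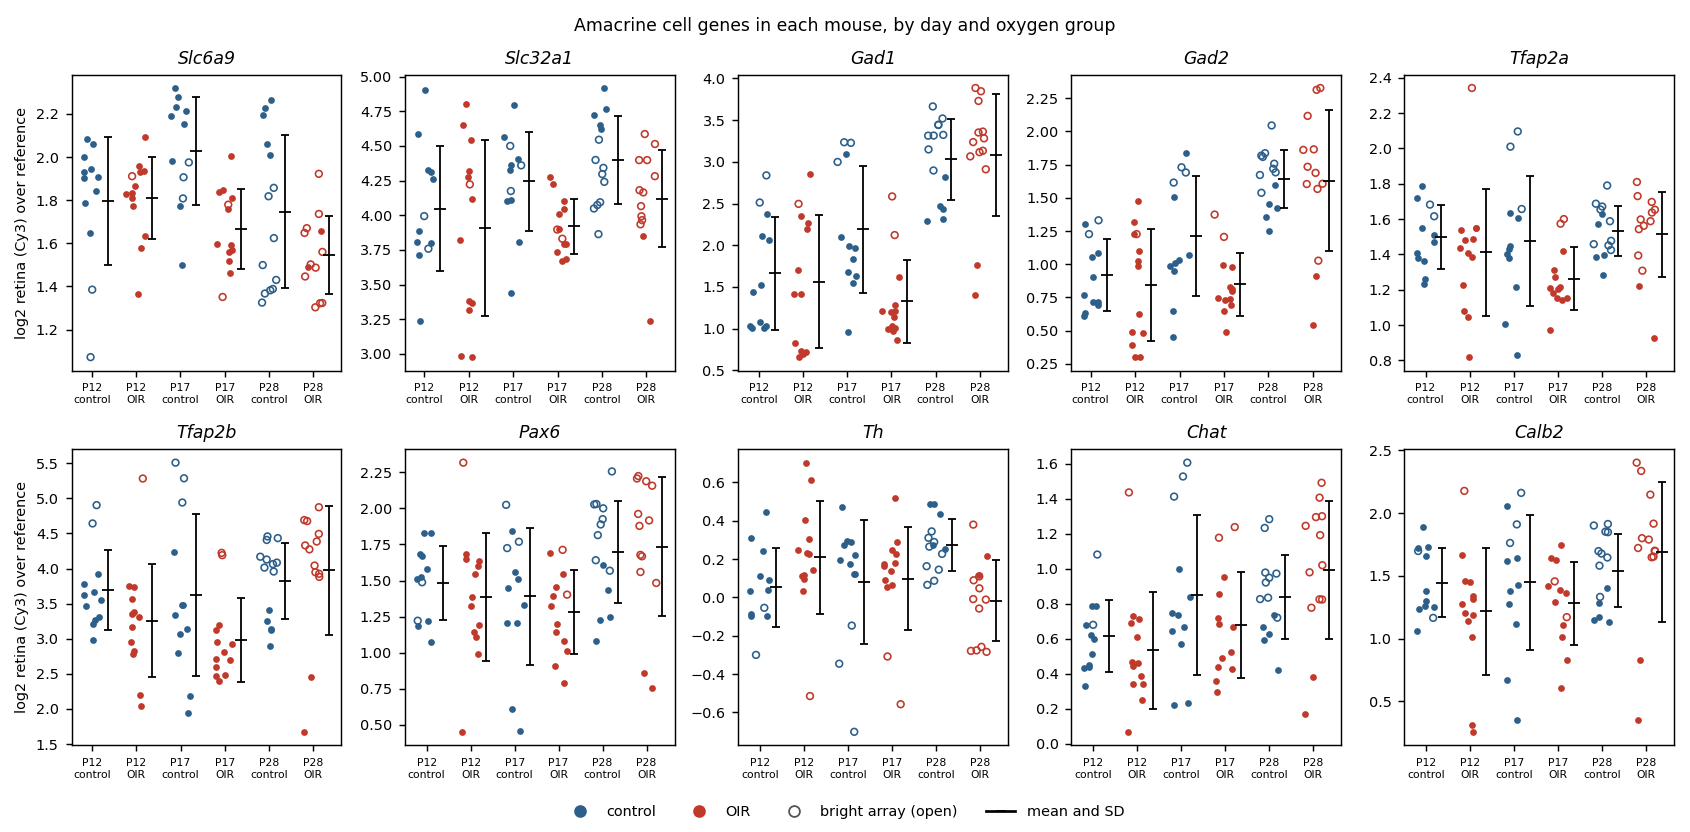
Log2 ratio of retina (Cy3) to reference for the 10 amacrine cell genes in each of the 77 mice, by day and oxygen group. Points are mice (blue control, red OIR, open on the 28 bright arrays) and bars are the mean and SD. On P17, 13 of 13 OIR mice lie below the control median for *Slc6a9*, and for *Gad1* the 2 OIR mice above it are both on bright arrays.

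The comparison of OIR with control mice on P17 asks how these genes stood 5 days after the return to room air. *Slc6a9* was lower in the OIR group, and it was the member that passed the test. Differentially expressed means an adjusted p below 0.05 in limma, over all 55681 non-control probes. By this rule 2.29% of the 21154 genes passed on P17 and 0.652% passed as lower in OIR mice, against 1 of the 10 members. At an unadjusted p below 0.05 the count was 4 members, which were *Slc6a9*, *Gad1*, *Slc32a1* and *Gad2*, all lower, against 15.9% of all genes and 9.02% lower. Such a bulk measurement cannot tell fewer cells of a type from less RNA per cell.

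The ratio of *Slc6a9* (probe A_55_P1973838) in P17 control mice had a lowest value of 1.5, a median of 2.07 and a highest value of 2.32. In P17 OIR mice it ran from 1.35 over a median of 1.60 to 2.003. The control median was above all 13 OIR mice, and 2 of these lay below the lowest control mouse, so the groups overlapped. The log2 fold change was −0.36 (SE 0.085, 95% interval −0.53 to −0.18, adjusted p = 0.0307, n = 13 and 12). In the Cy3 channel alone it was −0.57 (adjusted p = 0.000969), and there 7 of 13 OIR mice lay below the lowest control mouse. The other probe of *Slc6a9* gave −0.28 in the ratio, which did not pass (adjusted p = 0.133), and −0.54 in Cy3 alone, which did (adjusted p = 0.00134). In the reference channel the P17 change was −0.26 for probe A_55_P1973838 and −0.33 for the other probe, and neither passed. There 7 of 13 and 5 of 13 OIR mice lay below the lowest control mouse. The part of this shift in the Cy3 values was not tested. With the slide, the piece of glass that carries several arrays, as a block, the ratio gave −0.36 and did not pass (adjusted p = 0.0565). On the 6 slides that held both groups on P17, the OIR minus control difference was negative on 5, with a median of −0.41 and a range of −0.59 to 0.07.

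*Slc6a9* levels were ordered by group mean as P17 control 2.03 (SD 0.25), P12 OIR 1.81 (SD 0.19), P12 control 1.80 (SD 0.30), P28 control 1.75 (SD 0.36), P17 OIR 1.67 (SD 0.19) and P28 OIR 1.54 (SD 0.18). No neighbours in this order differed by more than the larger of their SDs. In Cy3 alone the order was P28 control 11.89, P28 OIR 11.73, P17 control 11.60, P12 control 11.26, P12 OIR 11.19 and P17 OIR 11.04, so the P28 groups moved from the lower to the upper end.

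*Gad1* had the largest P17 difference in the ratio among the 10 members but did not pass the test. Its ratio (probe A_52_P144310) in P17 control mice ran from 0.96 over a median of 1.98 to 3.23, and in P17 OIR mice from 0.86 over a median of 1.20 to 2.58. Of the 13 OIR mice, 11 were under the median of the controls, and the 2 above it were the 2 on bright arrays. The log2 fold change was −0.86 (SE 0.248, 95% interval −1.37 to −0.35, adjusted p = 0.111). The difference was negative on 6 of 6 slides that held both groups, from −1.04 to −0.41 with a median of −0.66.

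The mean *Gad1* ratio on P17 was higher on bright arrays, though single mice overlapped. A P17 control mouse on an array that was not bright had 3.095, above a bright one at 2.998. On bright arrays its mean ratio was 3.15 in 3 P17 control mice and 2.35 in 2 P17 OIR mice, and on the other arrays it was 1.87 in 9 control mice and 1.14 in 11 OIR mice. When array brightness entered the fit as a block, a setting added once the data had been seen, the log2 fold change was −0.74 and passed (SE 0.147, adjusted p = 0.00347). Without the bright arrays it was −0.73 and passed (adjusted p = 0.0385). It also passed with the slide as a block at −0.69 (adjusted p = 0.0306). In Cy3 alone it was −0.76 (SE 0.129, adjusted p = 0.000478). There 13 of 13 OIR mice were under the median of the controls and 8 under the lowest of them. In the authors' value table it was −0.60 and did not pass (adjusted p = 0.299).

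*Gad2*, the other decarboxylase, and *Slc32a1*, the vesicular transporter, had smaller P17 differences that did not pass. *Gad2* had a log2 fold change of −0.36 (SE 0.139, adjusted p = 0.311), and 11 of 13 OIR mice were under the median of the controls. *Slc32a1* had −0.32 (SE 0.111, adjusted p = 0.223). For it 13 of 13 OIR mice were under the median of the controls and none under the lowest of them. Both were negative within 6 of 6 slides, with medians of −0.27 for *Gad2* and −0.25 for *Slc32a1*. The other probe of *Slc32a1*, above background in Cy3 on 36 arrays, gave −0.03. On P17 it was above background in Cy3 in 1 of 12 control and 2 of 13 OIR mice, and in the reference on no array. The size of its P17 change is thus not known. The value table gave 0.13 for the brighter probe of *Slc32a1*.

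The 6 remaining members did not pass on P17. Among the transcription factors, *Tfap2b* had a log2 fold change of −0.63 (95% interval −1.36 to 0.09), *Tfap2a* −0.21 and *Pax6* −0.11. The ratio of *Tfap2b* in P17 control mice ran from 1.94 to 5.51, the widest range of any member in any group, and its 3 highest control values were on bright arrays. The subtype markers *Chat* and *Calb2* each had −0.17, and *Th* had 0.02 (95% interval −0.22 to 0.26). In Cy3 alone *Chat* had 0.00, *Pax6* 0.11, *Calb2* 0.08 and *Th* −0.03. The ratio and Cy3 alone thus differ in sign for these 4 genes on P17. In Cy3 alone 6.13% of genes were called on P17, against 2 of the 10 members, *Slc6a9* and *Gad1*.

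**Figure D2:**
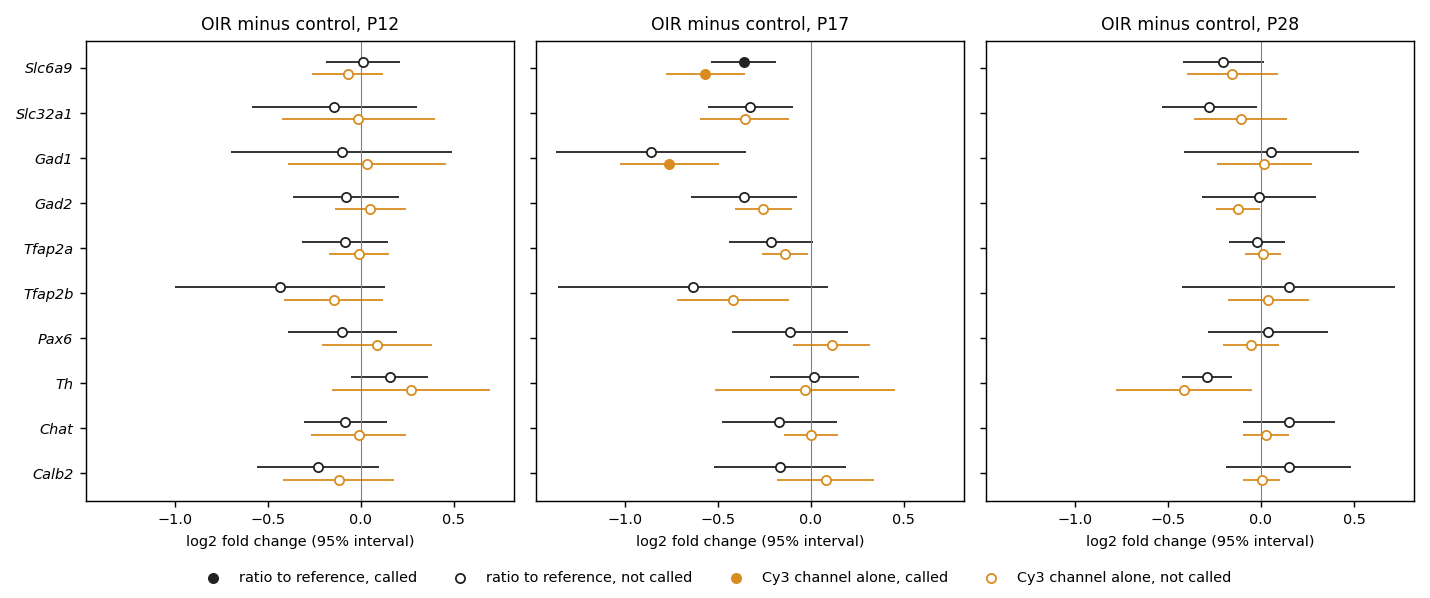
OIR minus control log2 fold change of the 10 amacrine cell genes on P12, P17 and P28, with 95% intervals, for the ratio to the reference (black) and the Cy3 channel alone (orange). Filled points passed at an adjusted p below 0.05: *Slc6a9* on P17 in both, and *Gad1* on P17 in Cy3 alone.

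On P12, at the end of the oxygen exposure, none of the 10 members passed in limma, in the ratio or in Cy3 alone, and none reached an unadjusted p below 0.05 in either, where 3.27% and 3.84% of all genes did. The background was 0.0615% of genes in the ratio and 0.184% in Cy3 alone. Ratio log2 fold changes ran from −0.43 for *Tfap2b* (95% interval −0.998 to 0.13) to 0.16 for *Th* (95% interval −0.05 to 0.36). For *Th*, 11 of 13 OIR mice lay above the control median, and for *Tfap2b* 10 of 13 lay below it. The median of the 10 members was −0.09, against −0.0016 over all named genes.

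On P28, 16 days after the exposure ended, no member passed in the ratio or in Cy3 alone, against a background of 0.137% and 0.624%. At an unadjusted p below 0.05 the count in the ratio was 2 members, *Th* and *Slc32a1*, against 8.45% of all genes. The ratio of *Th*, the rate-limiting enzyme of dopamine synthesis, ran in P28 control mice from 0.07 over a median of 0.27 to 0.49. In P28 OIR mice it ran from −0.28 over a median of −0.01 to 0.38, with 12 of 13 below the control median and 8 below the lowest control mouse. Its log2 fold change was −0.29 (SE 0.066, 95% interval −0.42 to −0.16, adjusted p = 0.116), and it was negative on 3 of 3 slides that held both groups. It passed with array weights, at −0.31 (adjusted p = 0.0212). *Slc32a1* had −0.28 and *Slc6a9* −0.20. Both were negative on 1 of the 3 slides, with medians of 0.072 and 0.0056, and with the slide as a block they had 0.0069 and 0.0031. In Cy3 alone both were negative on 3 of 3 slides, with medians of −0.21 and −0.30. The other 7 members lay between −0.02 and 0.15. *Tfap2a* had −0.02, *Gad2* −0.01, *Pax6* 0.04, *Gad1* 0.06, and *Tfap2b*, *Chat* and *Calb2* 0.15.

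The P28 values of several members depended on array brightness, and 2 OIR and 5 control mice were not on bright arrays. For *Gad1*, *Gad2*, *Tfap2a*, *Tfap2b*, *Pax6*, *Chat*, *Calb2* and *Slc32a1* these 2 OIR mice were the lowest of the 13. Their *Gad1* ratios were 1.40 and 1.77, against 2.91 to 3.88 in the other 11 OIR mice. Without the bright arrays, likewise a setting added once the data had been seen, the P28 comparison kept 2 OIR and 5 control mice. Then 6 members were lower in OIR mice by limma, with log2 fold changes of −1.19 for *Slc32a1*, −1.10 for *Tfap2b*, −0.88 for *Gad1*, −0.69 for *Gad2*, −0.64 for *Calb2* and −0.58 for *Slc6a9*. In that setting 4564 of 55681 probes passed. The 2 OIR mice shared no slide with the 5 control mice, so slide and oxygen cannot be told apart in it. On bright arrays the mean *Gad1* ratio was 3.36 in 11 OIR mice and 3.34 in 9 control mice. There the mean ratio of *Slc32a1* was 4.23 in OIR and 4.21 in control mice, and that of *Slc6a9* 1.54 and 1.52.

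Whether the OIR effect itself differed between days was tested as an interaction. None of the 10 members passed between P12 and P17, where 1.05% of genes did, or between P17 and P28, where 0.577% did. At an unadjusted p below 0.05 the counts were 2 and 2 members, against 6.89% and 17.6% of all genes. From P12 to P17 the difference of effects was −0.37 for *Slc6a9* (SE 0.14, adjusted p = 0.641) and −0.76 for *Gad1* (SE 0.37, adjusted p = 1). With the slide as a block the value for *Slc6a9* was −0.47 and passed (adjusted p = 0.0434). From P17 to P28 it was 0.92 for *Gad1* (SE 0.37, adjusted p = 0.290) and −0.31 for *Th* (SE 0.14, adjusted p = 0.314). In Cy3 alone no member passed either interaction, against 3.52% and 2.20% of genes, and *Gad1* had −0.79 (adjusted p = 0.052) and 0.78 (adjusted p = 0.0709) and *Slc6a9* −0.50 (adjusted p = 0.0923) and 0.41 (adjusted p = 0.237). The difference between the P12 and P17 effects on *Slc6a9* thus passed only with the slide as a block, and none passed between P17 and P28.

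Changes with age were compared within each oxygen group. Between P12 and P17 no member passed in the ratio in control mice, where 2.32% of genes did, or in OIR mice, where 6.00% did. At an unadjusted p below 0.05 the counts were 1 member, *Slc6a9* at 0.23, and 0 members, against 11.3% and 15.7% of all genes. With the slide as a block *Slc6a9* in control mice had 0.30 and passed (adjusted p = 0.0461). In Cy3 alone *Gad1* and *Gad2* rose in control mice, by 0.56 (adjusted p = 0.0384) and 0.32 (adjusted p = 0.0072), with 12 of 12 P17 mice above the P12 median for both genes. The background in Cy3 alone was 5.77% in control mice and 13.9% in OIR mice, where none of the 10 members passed.

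Between P17 and P28 the GABA-synthesis genes rose in the ratio in both oxygen groups. In control mice 3 members passed, *Gad1* and *Gad2* higher and *Slc6a9* lower on P28, against 19.1% of all genes in either direction and 11.7% higher. *Gad1* rose by 0.84 (SE 0.26, adjusted p = 0.0211), with 14 of 14 P28 control mice above the P17 median. *Gad2* rose by 0.43 (SE 0.14, adjusted p = 0.0362), with 14 of 14 above it, and *Slc6a9* had −0.28 (SE 0.098, adjusted p = 0.0446), with 11 of 14 below it. The other probe of *Slc6a9* had −0.185 and did not pass. In Cy3 alone *Slc6a9* had 0.28, the opposite sign, and did not pass (adjusted p = 0.0646). There 20.4% of genes and 2 members passed, *Gad1* by 0.63 and *Slc32a1* by 0.47. The other probe of *Slc32a1* passed in the ratio at 0.17. It was above background in Cy3 in 1 of 12 P17 and 13 of 14 P28 control mice, and in the reference on no array, so the size of its change is not known.

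In OIR mice 7 members were higher on P28 than on P17 in the ratio, where 51.2% of all genes passed and 28.8% passed as higher. *Gad1* rose by 1.76 (SE 0.26, adjusted p = 1.36e-07), with 13 of 13 P28 mice above the P17 median and 11 above the highest P17 mouse. *Gad2* rose by 0.78 (SE 0.14, adjusted p = 1.12e-05), with 12 of 13 above the P17 median. The others were *Tfap2b* at 0.99, *Pax6* at 0.45, *Calb2* at 0.41, *Chat* at 0.31 and *Tfap2a* at 0.25. In Cy3 alone none of these 5 passed, with 0.29 for *Tfap2b* and 0.093 for *Tfap2a*, and the sign turned for *Pax6* at −0.058, *Calb2* at −0.24 and *Chat* at −0.13. The other probe of *Pax6* had 0.16 in the ratio, which passed (adjusted p = 0.0401), and −0.12 in Cy3 alone, which did not. The other probe of *Tfap2a* had 0.011 and did not pass. It was above background in Cy3 in 3 of 13 P17 and 11 of 13 P28 OIR mice and in the reference on no array. *Slc32a1* had 0.20, *Th* −0.11 and *Slc6a9* −0.12, and none of these 3 passed. The dim other probe of *Slc32a1* passed at 0.18, with 2 of 13 P17 and 12 of 13 P28 OIR mice above background.

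Most of these P28 values moved with array brightness. With brightness as a block, the OIR age changes were 0.93 for *Gad1* and 0.40 for *Gad2*, which passed, while *Tfap2b* had −0.14, *Chat* −0.12 and *Tfap2a* −0.02. In control mice *Gad1* had 0.37, *Gad2* 0.21 and *Slc6a9* −0.15, and none of them passed, while *Th* at 0.35 and *Chat* at −0.25 passed. On bright arrays the *Gad1* ratio averaged 2.35 in 2 P17 OIR mice and 3.36 in 11 P28 OIR mice, and on the other arrays 1.14 in 11 and 1.58 in 2. Without the bright arrays the *Gad1* change was 0.60 in control and 0.44 in OIR mice, and neither passed, and *Slc6a9* in control mice had 0.081. In Cy3 alone 47.1% of genes passed in OIR mice, with 5 members, *Gad1* at 1.41, *Slc32a1* at 0.71, *Slc6a9* at 0.69 and *Gad2* at 0.31 higher and *Th* at −0.60 lower. On bright arrays the Cy3 level of *Th* was 6.94 and 7.06 in 2 P17 OIR mice and 7.16 to 7.63 in 11 P28 OIR mice. On the other arrays it was 7.82 to 8.95 in 11 P17 OIR mice and 8.17 and 8.19 in 2 P28 OIR mice. The lower *Th* was thus not seen within bright arrays.

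In the authors' value table the sign of the *Gad1* and *Gad2* age changes turned, to −0.28 and −0.18 in control mice and −0.47 and −0.13 in OIR mice, none past the test. In that table other members passed as lower on P28, in OIR mice *Slc32a1* at −1.44, *Pax6* at −1.23, *Calb2* at −1.13 and *Tfap2a* at −0.28, and in control mice *Pax6* at −0.94, *Chat* at −0.75 and *Tfap2a* at −0.38. Of these, *Pax6*, *Calb2* and *Tfap2a* in OIR mice had passed as higher in the ratio. Among all 55681 probes, 44.3% passed in the value table in OIR mice and 19.7% in control mice. Those lower on P28 were 10755 probes in OIR mice and 4459 in control mice. The reference channel, which received the same RNA on every array, was also brighter on P28 in OIR mice for 8 members at an adjusted p below 0.05. Among all 55681 probes, 3531 passed in the reference between P17 and P28 in OIR mice and 210 in control mice. The change of the reference in OIR mice was 0.81 for *Slc6a9*, 0.77 for *Slc32a1*, 0.24 for *Gad1*, 0.20 for *Tfap2a*, 0.10 for *Pax6*, 0.09 for *Gad2*, 0.06 for *Tfap2b* and 0.05 for *Calb2*. In control mice it passed for *Pax6*, at 0.11, while the larger changes of *Slc32a1* at 0.58 (adjusted p = 0.164) and *Slc6a9* at 0.54 (adjusted p = 0.129) did not pass. For *Slc6a9* the reference and the ratio did not both pass in either oxygen group. In control mice its ratio passed as lower and its reference did not pass. In OIR mice its reference passed as brighter and its ratio, at −0.12, did not pass. The part of the reference in the ratio was not tested. Between the oxygen groups of a day no member passed in the reference channel at that threshold, though *Slc6a9* on P17 had −0.26 there. Age and brightness cannot be fully told apart on these arrays.

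**Figure D3:**
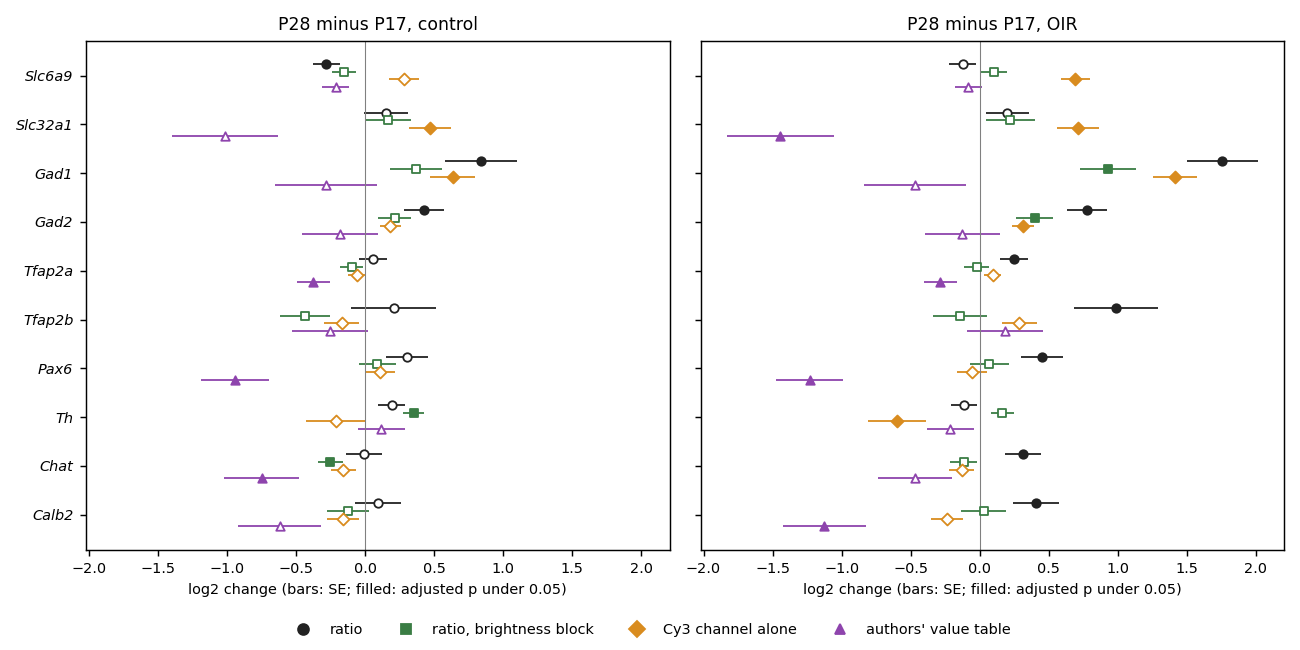
Log2 change from P17 to P28 of the 10 amacrine cell genes in control and OIR mice, with SE bars, for the ratio, the ratio with array brightness as a block, the Cy3 channel alone and the authors' value table. Filled symbols passed at an adjusted p below 0.05. *Gad1* in OIR mice is 1.76 in the ratio, 0.93 with the block, 1.41 in Cy3 alone and −0.47 in the value table.

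*Gad1* levels were ordered by group mean as P28 OIR 3.08 (SD 0.73), P28 control 3.03 (SD 0.48), P17 control 2.19 (SD 0.76), P12 control 1.67 (SD 0.68), P12 OIR 1.56 (SD 0.80) and P17 OIR 1.33 (SD 0.50). Among neighbours, the step from P28 control to P17 control was larger than the SD of both groups, and the others were not. In Cy3 alone P28 OIR at 9.66 and P28 control at 9.64 were also the highest groups and P17 OIR at 8.25 the lowest. P17 OIR mice had the lowest group mean of *Gad1*, *Tfap2a* and *Tfap2b* in both the ratio and Cy3 alone, and P28 OIR mice that of *Th*. Within bright arrays and within the others, this order of the ratio held for *Gad1* but not for *Tfap2a*, *Tfap2b* or *Th*. On the other arrays *Tfap2b* was 2.06 in P28 OIR and 2.76 in P17 OIR mice, and *Tfap2a* 1.07 and 1.20. On bright arrays *Th* was −0.05 in P28 OIR and −0.43 in P17 OIR mice. On the other arrays it was 0.17 in P28 OIR and 0.10 in P12 control mice. A P28 group had the highest mean ratio for 9 members, but the highest mean in Cy3 alone for 4, *Slc6a9*, *Slc32a1*, *Gad1* and *Gad2*.

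Other genes of the same pathways were followed in 5 lists of 44 genes, of which 43 had a probe. On P17 none of these genes passed as higher in OIR mice in the ratio. In the list of GABA and glycine handling outside the members, with 8 measured genes, the median log2 fold change was −0.31, with 6 of 8 genes below 0. In the dopaminergic list *Qdpr*, which recycles the tetrahydrobiopterin cofactor of tyrosine hydroxylase, had −0.41 (SE 0.096, adjusted p = 0.0273), as 1 of 5, against 0.652% of all genes lower.

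None of 15 amacrine transcription factors passed on P17. The largest of them was *Prdm13* at −0.71 (adjusted p = 0.170), which passed at −0.63 in Cy3 alone and at −0.59 with the brightness block. The list median was −0.12, with 13 of 15 below 0. None of 6 cholinergic genes passed (largest *Megf10*, −0.36), nor any of 9 other subtype genes (largest *Gjd2*, the gap junction protein connexin 36, −0.55). The median of the 10 members on P17 was −0.27, with 9 of 10 below 0, against −0.0026 over all named genes. With the brightness block it was −0.24, with 10 of 10 below 0, and in Cy3 alone it was −0.20, with 7 of 10 below 0.

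On P12 and on P28 none of the 43 genes passed. The largest P12 values, taken separately from each list, were −0.27 for *Isl1*, −0.24 for *Megf10*, −0.23 for *Abat*, −0.17 for *Gjd2* and 0.14 for *Gch1*. *Gch1* encodes the first enzyme of tetrahydrobiopterin synthesis. The largest P28 values, taken separately from each list, were 0.58 for the GABA transporter *Slc6a13*, −0.29 for *Dab1*, 0.28 for *Megf10*, −0.24 for *Gch1* and 0.18 for *Meis2*. None passed an interaction in the ratio. The P17 to P28 interaction was above 0 for 8 of 8 genes of the GABA and glycine list, with a median of 0.50, against 11081 of 21154 genes and a median of 0.0051 over all named genes. It shares the P17 groups with the P17 values of that list.

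With age, *Pvalb*, which encodes parvalbumin, was the gene of these lists that rose in the ratio between P12 and P17. It rose by 0.85 in control (SE 0.089, adjusted p = 8.51e-11) and 0.78 in OIR mice (SE 0.085, adjusted p = 4.03e-11). In either direction 2.32% and 6.00% of all genes passed. Some transcription factors passed as lower in OIR mice in Cy3 alone and with the brightness block, but not in the ratio. Between P17 and P28 in OIR mice, 6 of 8 GABA and glycine genes, 8 of 15 transcription factors, 4 of 6 cholinergic, 2 of 5 dopaminergic and 6 of 9 other subtype genes were higher, against 28.8% of all genes. In the same comparison, where 22.4% of all genes were lower, 2 dopaminergic genes and 1 other subtype gene were lower, *Gch1* at −1.08, *Ddc* at −0.46 and *Dab1* at −1.03. *Slc5a7*, the choline transporter, rose by 0.90 in OIR mice and 0.41 in control mice. With the brightness block *Slc5a7* in OIR mice was 0.45 and *Dab1* was −0.44, and both passed. In that setting 2 of 8 GABA and glycine genes, 1 of 15 transcription factors, 1 of 6 cholinergic, 2 of 5 dopaminergic and 4 of 9 other subtype genes were higher, and 2 transcription factors and 1 other subtype gene were lower, against 11.8% of all genes higher and 12.2% lower. In control mice 2 of 15 transcription factors, 1 of 6 cholinergic, 2 of 5 dopaminergic and 3 of 9 other subtype genes were higher between P17 and P28 in the ratio, against 11.7% of all genes, and *Dab1* was lower at −0.57.

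Markers of other retinal cells were measured beside the members. The brightest gene of a list is named because it weighs most in the summed signal. It is not a comparison of levels between genes. On P17 the summed Cy3 signal of the 10 members, on the log2 scale, was 13.28 (SD 0.22) in control and 12.90 (SD 0.16) in OIR mice, with all 10 above background and *Slc32a1* the brightest. That of 4 Mueller glia markers was 13.06 (SD 0.13) and 12.59 (SD 0.21), with *Glul* the brightest, and that of 8 ganglion cell markers was 13.39 (SD 0.33) and 13.11 (SD 0.24), with *Thy1* the brightest. It was 13.86 and 13.74 for 6 bipolar, 16.28 and 16 for 5 rod, 12.99 and 12.92 for 4 cone and 11 and 10.80 for 5 horizontal cell markers, of which 2 were above background in each P17 group. Microglia markers stood at 9.26 and 9.71, endothelial markers at 10.63 and 11.16, pigment epithelium markers at 9.78 and 9.32, with *Best1* above background on 0 of 77 arrays, and lens markers at 8.76 and 8.43.

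The median P17 log2 fold change in the ratio was −0.39 for the Mueller glia list, −0.32 for the ganglion and the pigment epithelium lists, −0.30 for the bipolar list and −0.27 for the 10 members. It was −0.16 for lens, −0.08 for cone, 0.0044 for horizontal, 0.03 for rod, 0.19 for endothelial and 0.26 for microglia. The markers that passed were *Nefl*, a neurofilament of ganglion cells, at −0.77, *Rpe65* at −0.81, *Csf1r* at 0.51 and *Aif1* at 0.33. The lower values of *Slc6a9* and *Gad1* on P17 thus stood beside lower values for markers of other cells. The part of cell composition in them was not tested.

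On P28 the microglia gene *Csf1r* was higher in OIR mice at 0.41 (adjusted p = 0.0306), the marker that passed on that day. On P12 no marker passed, and the largest value was −0.89 for the endothelial gene *Cldn5*. Lens markers, with *Cryaa* the brightest, stood at 8.43 (SD 0.94) in P17 OIR and 11.20 (SD 2.75) in P28 OIR mice, and at 8.76 (SD 1.005) and 10.47 (SD 2.66) in control mice. Of the 4 lens markers, 0 were above background in P17 OIR and 2 in P17 control mice, against 4 and 3 on P28, so the P17 values lie near the floor. Their part in the age changes of the members was not tested.

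The members also varied among mice of a group. After the 6 group means were subtracted, the ratios of *Gad1* and *Gad2* had a Pearson correlation of 0.92 over the 77 arrays, and 0.87 after brightness was also removed. *Pax6* and *Calb2* had 0.88 and 0.80, *Tfap2a* and *Tfap2b* 0.86 and 0.77. *Slc32a1* and *Gad1* had 0.56 and 0.86. *Slc6a9* had −0.39 with *Gad1* before brightness was removed and −0.12 after, and 0.022 with *Chat* before and 0.65 after. *Th* had −0.57 with *Chat* before and −0.01 after. These are descriptions, since the arrays share the reference RNA and their brightness.

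Among 11821 genes well above background on at least 50% of arrays, those most like *Gad1* in the same measure were *Lamp5* (0.97), *Qpct* (0.97) and *Tram1l1* (0.97). Those most like *Gad2* were *Sphkap* (0.94), *Gucy1b1* (0.94) and *Cntnap2* (0.94). For *Slc32a1* they were the granins *Chga* (0.94) and *Chgb* (0.93) and *Camkv* (0.92). For *Slc6a9* they were *Apc2* (0.83), *Epn1* (0.82) and *Aplp2* (0.82). The closest genes were *Thsd7a* to *Tfap2a* (0.90), *Plch1* to *Tfap2b* (0.97), *Rgs4* to *Pax6* (0.91), *Mdga2* to *Chat* (0.94) and *Fam222a* to *Calb2* (0.90). *Th* had the weakest likeness, 0.81 with *Hs6st1*, and 0.53 after brightness was removed. For *Gad1* and *Lamp5* the value after brightness was removed was 0.95, and for *Slc32a1* and *Chga* it was 0.94.

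*Gad1* and *Gad2* had the highest correlation of any pair of members, so the sequence before their starts is shown. The set of RefSeq promoters used here covers 9 of the 10 members, 13 in all on build GRCm38.p6, and has no entry for *Calb2*. The 250 bases before each start were searched on both strands. The motifs were the hypoxia response core ACGTG and the AP-2 motif GCCNNNGGC, chosen after the results were seen. GCCNNNGGC lay in 2 of the 13 member promoters, those of *Gad2* with 2 matches and *Pax6* with 1, and in 13.7% of all 32851 promoters. ACGTG lay in 2 of the 13, those of *Pax6* and *Chat*, in the latter as a palindrome counted on both strands, and in 16.6% of all promoters. Neither motif lay in the windows of *Gad1* or *Slc6a9*, and the matches of the 2 motifs lay in different promoters. Capitals mark GCCNNNGGC, and both windows are on the plus strand of chromosome 2, at chr2:70561879-70562128 for *Gad1* and chr2:22622077-22622326 for *Gad2*.
Gad1: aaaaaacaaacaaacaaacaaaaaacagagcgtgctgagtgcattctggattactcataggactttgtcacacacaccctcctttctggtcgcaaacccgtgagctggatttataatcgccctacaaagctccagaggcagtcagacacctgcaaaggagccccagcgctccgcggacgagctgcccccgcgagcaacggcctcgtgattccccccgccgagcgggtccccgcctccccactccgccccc
Gad2: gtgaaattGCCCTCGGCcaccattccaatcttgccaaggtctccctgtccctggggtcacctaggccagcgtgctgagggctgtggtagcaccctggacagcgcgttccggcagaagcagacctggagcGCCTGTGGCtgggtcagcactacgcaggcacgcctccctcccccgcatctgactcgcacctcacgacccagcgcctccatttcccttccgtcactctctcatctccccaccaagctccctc
A match of letters is a description of the window and not a binding site.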

How the data were processed

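Retina samples of 77 mice were measured on 2-colour Agilent arrays of 62976 spots. Per the file headers, Feature Extraction 10.7.3.1 wrote median and processed signals as intensity for each spot and channel. The deposited value table holds log2 ratios in a scale found to equal log2 of Cy3 over Cy5 processed intensity, within 0.001 for 99.28% to 99.49% of probes on each array. Its normalisation settings are not stated.

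Median signals were background corrected (normexp, offset 50) and loess normalised within arrays in limma 3.58.1 (R 4.3.3). Spots marked as outliers (0.592% to 0.951% per array) were given no weight, and spots of a probe were averaged. The number of arrays limits the precision.

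OIR and control mice of a day were compared by limma's moderated test with Benjamini-Hochberg adjustment over 55681 probes. Interactions and age changes came from a model of the 6 groups over 77 arrays. Cy3 alone and the reference channel were quantile normalised and tested in the same way.

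Alternatives were no background subtraction, the value table, Cy3 alone, Aquantile scaling, a slide block, differences within slides, a filter on dim probes (above background on 50% of the arrays of a group), array weights and the 6-group model. A brightness block and leaving out bright arrays were chosen after seeing the data.

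All 10 members are named. From the lists of other genes, at most the 3 with the largest fold change among those past the threshold were eligible for naming per comparison, or the largest where none passed. Other list genes enter the counts and medians only. Apart from this rule, 2 genes of the lists were left out of the naming, and their results are not reported here. The members and lists were chosen with earlier results of these data known. The symbol *Slc6a5* in a list had no probe, and *Sept4* was read as *Septin4*. The analysis was tested on simulated data.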

Additional observations from a re-analysis of the deposited data

How the results depend on the processing

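Aquantile scaling leaves a ratio within an array unchanged by construction, and it gave the same 90 member values. For the 10 members, P12 had 0 called in each setting. The lower *Slc6a9* on P17 kept its direction in every setting and lost its call with the slide block (−0.36). *Gad1* on P17 kept its direction in every setting, and it was called with the slide block, no background subtraction, array weights, the dim-probe filter, Cy3 alone, the brightness block and without the bright arrays. The cause of these shifts was not tested, except that the dim-probe filter adjusts over fewer probes.

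The P17 count of members called was 1, and it was 2 with the brightness block, without the bright arrays, with array weights, without dim probes, with no background subtraction and in Cy3 alone. The P28 count of 0 was 1 with array weights and 6 without the bright arrays. The P12 to P17 interaction count of 0 was 1 with the slide block. The control P17 minus P12 count of 0 was 1 with the slide block (*Slc6a9*) and 2 in Cy3 alone (*Gad1* and *Gad2*). The control P28 minus P17 count of 3 was 5 with array weights, 0 without the bright arrays, and 2 in Cy3 alone (*Gad1* and *Slc32a1*) and with the slide block or no background subtraction, where *Gad2* lost its call. The OIR P28 minus P17 count of 7 was 2 with the brightness or slide block, 3 with no background subtraction, 4 in the value table, 5 in Cy3 alone, 0 without the bright arrays and 8 with array weights, which added *Th* as lower (−0.23). The 7 were higher on P28, and the 4 of the value table were lower. Of all probes, 40.6% were called in this OIR comparison in the ratio and 39.6% with no background subtraction. The share was 17.2% with the slide block, 44.3% in the value table and 38.3% in Cy3 alone. The control count of 3 stayed 3 in the value table, but for *Tfap2a*, *Chat* and *Pax6*, all lower. It was 2 with the brightness block, *Th* higher and *Chat* lower. In the control P28 minus P17 comparison, 13.4% of all probes were called in the ratio and 14.4% with no background subtraction. That share was 14.5% with the slide block, 19.7% in the value table and 15.1% in Cy3 alone.

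Signs turned as follows where the value was called in at least 1 of the 2 settings compared. With the brightness block, OIR P28 minus P17 was −0.021 for *Tfap2a*, −0.14 for *Tfap2b* and −0.12 for *Chat*. In Cy3 alone, P28 minus P17 was 0.28 for *Slc6a9* in control mice, and in OIR mice 0.69 for *Slc6a9*, −0.13 for *Chat*, −0.058 for *Pax6* and −0.24 for *Calb2*. In the value table it was −0.38 for *Tfap2a*, −0.28 for *Gad1*, −0.18 for *Gad2* and −0.94 for *Pax6* in control mice. In OIR mice the value table gave −1.44 for *Slc32a1*, −0.28 for *Tfap2a*, −0.47 for *Gad1*, −0.13 for *Gad2*, −0.47 for *Chat*, −1.23 for *Pax6* and −1.13 for *Calb2*. Without the bright arrays, OIR minus control on P28 was −1.10 for *Tfap2b*, −0.88 for *Gad1* and −0.64 for *Calb2*, on 2 against 5 mice. In that setting P28 minus P17 was 0.081 for *Slc6a9* in control mice, and in OIR mice −0.13 for *Tfap2a*, −0.70 for *Tfap2b*, −0.040 for *Gad2*, −0.31 for *Chat*, −0.42 for *Pax6* and −0.69 for *Calb2*. Of the 90 member values, signs also turned with no call in either setting for 24 in the value table, 22 without the bright arrays, 20 in Cy3 alone, 20 with the slide block, 14 with the brightness block, 10 with array weights and 10 with no background subtraction, and for 11 of 30 medians within slides, whose main values were not called. The cause was not tested.

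The percent of all 55681 probes called also moved. OIR against control on P12, 0.0233%, gave 0.0377% with array weights, 0.0718% in Cy3 alone and 0.0700% in the value table. P17, 1.13%, gave 3.90% with the brightness block, 2.79% with array weights, 1.87% with no background subtraction, 3.11% in Cy3 alone and 2.64% in the value table. P28, 0.0611%, gave 0.149% in the 6-group model, 0.232% with the brightness block, 0.212% with array weights, 0.110% with no background subtraction, 0.296% in Cy3 alone, 0.219% with the slide block, 0.203% in the value table and 8.20% without the bright arrays. The P12 to P17 interaction, 0.480%, gave 0.905% with the brightness block, 1.60% with array weights, 1.76% in Cy3 alone, 0.941% with the slide block and 1.39% in the value table. The P17 to P28 interaction, 0.278%, gave 0.751% with array weights, 1.04% in Cy3 alone and 0.584% in the value table.

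Control P17 minus P12, 1.28%, gave 3.00% with the brightness block, 2.96% with array weights, 3.18% in Cy3 alone, 3.16% with the slide block, 2.57% in the value table and 2.10% without the bright arrays. Control P28 minus P17, 13.4%, gave 35.8% with array weights and 1.32% without the bright arrays. OIR P17 minus P12, 3.43%, gave 6.92% with the brightness block, 8.57% with array weights, 8.36% in Cy3 alone, 7.26% with the slide block, 7.51% in the value table and 6.84% without the bright arrays. OIR P28 minus P17, 40.6%, gave 16.9% with the brightness block, 17.2% with the slide block and 0.675% without the bright arrays. The cause was not tested.

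Limits: the bright arrays hold 20 of 27 P28 mice, the reference channel of 6 members was above background on fewer than 27 of 77 arrays, and the litter of each mouse is not known. The number of arrays limits the precision of each value.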
